A study of Mus musculus with 17 samples.

Results

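KPT-330 (selinexor), an inhibitor of the nuclear export receptor XPO1, was compared with its absence during the middle of a directed differentiation of mouse small intestinal organoids. The comparison took the 4 single-cell libraries of organoids held in ENR+CD medium with 160 nM KPT-330 and the 3 libraries of organoids held in ENR+CD alone at days 2, 3 and 4, with the day of sampling as a block. All cells that passed the quality control of the study were kept, which left 9613 cells (4451 without and 5162 with KPT-330) of 19877 in the series, and 7 of its 17 libraries. The libraries were chosen by medium and day, not by any measured value.

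The organoids were grown from crypts of male and female wild-type C57BL/6 mice 1 to 6 months old, with no transgene or deletion in any group. They were first enriched for stem cells in ENR+CV, a medium with EGF, noggin, R-spondin, the GSK3 inhibitor CHIR99021 and valproic acid, and moved at day 0 to ENR+CD, in which CHIR99021 and the gamma-secretase inhibitor DAPT keep Wnt signalling on and Notch signalling off. Both exposures thus shared Wnt activation and Notch inhibition, a setting that favours Paneth cells, and the organoids hold epithelium with no stroma or immune cells. Cells came from pools of over 1000 organoids and were sequenced with Seq-Well S3, a microwell method that counts unique molecular identifiers (UMIs) at transcript 3′ ends.

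XPO1 (also CRM1) binds proteins that carry a leucine-rich export signal and takes them through the nuclear pore with the GTP-bound form of Ran, so its inhibition holds tumour suppressors, stress-responsive factors and ribosome export adaptors in the nucleus. In the crypt, WNT keeps LGR5+ stem cells and Paneth cells in place, while loss of NOTCH signalling releases ATOH1 and turns progenitors to Paneth, goblet and enteroendocrine fates. The integrated stress response, in which phosphorylation of eIF2α favours translation of ATF4, raises transcription of genes for amino acid uptake and synthesis and for CHOP, ATF3, TRIB3 and the glutathione-degrading enzyme CHAC1.

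Each library held 1126 to 1547 cells and 4221819 to 11669105 UMIs, and the median cell had 2676 to 7146.5 UMIs. The KPT-330 library of day 4 was the shallowest, with 882 of its 1273 cells at 1000 genes or more, while the KPT-330 library of day 2 was the deepest per cell. Transcripts encoded in mitochondria took 7.582% (KPT-330, day 4) to 15.41% (KPT-330, day 3 replicate 1) of the UMIs, and 2 cell barcodes were shared between libraries. Summed over 10 epithelial identity genes, levels lay between 42.87 and 56.37 UMIs per 10000, while the 21 of 22 listed markers of immune, stromal, endothelial, glial and red cells found in the files summed to 0.081 to 0.105 without and 0.033 to 0.074 with KPT-330, and Ptprc, Des, Cdh5, Sox10 and Hbb-bs had no UMI in any library. Every condition and day had 1 library except KPT-330 at day 3, which had 2 and supplied the only direct view of spread between like samples: over 6982 genes the log2 ratio of that pair had an SD of 0.2996, against 0.4285 and 0.5283 for its members set against the day 3 control. What the replicate numbers stand for is not given, so the spread between these libraries may be technical. The fit has 3 residual degrees of freedom, from the day 3 pair and from differences in the exposure effect between days. Its p-values measure both together.

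Genes rose and fell with KPT-330 in the summed libraries. Of 12156 genes tested on UMIs summed per library (edgeR quasi-likelihood test, Benjamini-Hochberg adjusted p under 0.05), 1599 rose (13.2%) and 1355 fell (11.1%), together 24.3%. The median log2 fold change was 0.64 among the raised and -0.84 among the lowered genes, and a change of at least 2-fold was reached by 361 raised genes (22.58%) and 519 lowered genes (38.3%). All 1355 lowered genes were lower in each of the 4 KPT-330 libraries than in the control of its day, as were 1080 of the raised genes in the other direction, before scaling between libraries. Scaling bears on these numbers: TMM factors were 1.089 to 1.185 in ENR+CD and 0.876 to 0.9639 with KPT-330, and with library totals alone, an alternative chosen after seeing the data, 637 genes rose and 4124 fell around a median of -0.30 over all genes. Fold changes below are therefore relative to a median of all genes of -0.0001 after TMM, and levels are UMIs per 10000 UMIs of the library, unscaled. On unscaled levels 2.6% of all genes had every KPT-330 library above every control and 37.6% every one below, against 13.2% and 14.8% on TMM-scaled levels.

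The number of calls rested on a few libraries. Without the ENR+CD library of day 3, which leaves the day 3 KPT-330 pair without a control and the estimate on days 2 and 4, 11 genes rose and 12 fell, and all 23 were among the 2954. Without the day 4 control the counts were 342 and 396, and without the day 4 KPT-330 library 345 and 412, whereas the other 4 left-out libraries gave 1274 to 1703 raised and 986 to 1316 lowered genes. Of the 2954 genes, 2934 to 2954 kept the sign of their fold change under each of the 7 omissions. A count of list members below is thus given with its value without those 3 libraries where the list carries a result.

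Xpo1 itself, which encodes the target of the drug (chr11:23256041-23298249, plus strand, mm10), was among the genes with the smallest p. In the order day 2, day 3 and day 4 for ENR+CD, and day 2, day 3 replicate 1, day 3 replicate 2 and day 4 for KPT-330, which holds for all values below, Xpo1 stood at 0.656, 0.607 and 0.716 in ENR+CD and 1.72, 1.73, 1.65 and 1.35 with KPT-330. Every KPT-330 library lay above every control, and the log2 fold change was 1.58 ± 0.13 (SE), edgeR adjusted p = 0.000266. Among 22 tested importins, exportins and transportins Xpo1 was the 1 that rose, Ipo11 (-0.53), Kpnb1 (-0.44), Ipo5 (-0.44) and Ipo9 (-0.44) fell, and the median was -0.11. The tRNA exporter gene Xpot (0.22) and Cse1l (-0.19), which recycles importin alpha, did not pass the test. Of 34 genes of the Ran cycle and the nuclear pore, 1 rose, Sec13 (0.48), which also codes for a COPII coat protein, and 3 fell, Rcc1 (-0.61), Nup210 (-0.53) and Nup133 (-0.64). These shares, 2.94% and 8.82%, lay under the 13.2% and 11.1% of all genes, while those of the importins, exportins and transportins were 4.55% and 18.2%.

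The 12 genes that the study names were picked in its single-cell comparisons, on cells that include some or all of those used here, so they are no independent evidence of direction. Of them 6 rose, 5 fell and Ccnd1 (-0.58, edgeR adjusted p = 0.0606) did not pass. Slc16a6, which encodes the ketone body and taurine transporter MCT7, measured 0.676, 0.582 and 0.587 in ENR+CD and 2.43, 2.69, 2.62 and 1.53 with KPT-330. No KPT-330 value overlapped a control value, and the gene rose by 2.14 ± 0.15 (SE), edgeR adjusted p = 0.000201. Arrdc3, an arrestin-domain adaptor for receptor ubiquitination, measured 0.614, 0.921 and 0.649 in ENR+CD and 1.42, 1.43, 1.36 and 1.35 with KPT-330, also without overlap (1.22 ± 0.13 (SE), edgeR adjusted p = 0.00137). The other raised members were Atf3 (1.19), Tbrg1 (0.98) and Cdkn1a (0.56), which code for a stress-induced transcription factor, a regulator of p53 and the CDK inhibitor p21. The lowered members were Mki67 (-1.09), Cdk4 (-0.54), Trp53 (-0.47), Kpnb1 (-0.44) and Cdk6 (-0.43). Of these 11 calls Xpo1, Slc16a6 and Arrdc3 held without any 1 library, and the other 8 were lost without the day 3 control, 7 of them also without at least 1 other library. In the 7 cell classes described below, each of the 5 lowered members was called lowered in 0 classes and Cdkn1a raised in 0. Tbrg1 rose in 4 and Atf3 in 3. Fits of Kpnb1 lay below 0 in 7 classes, of Cdk4 and Trp53 in 6 and of Mki67 and Cdk6 in 4. In the summed libraries a change in cell mix and in RNA per cell cannot be told apart.

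**Figure D1:**
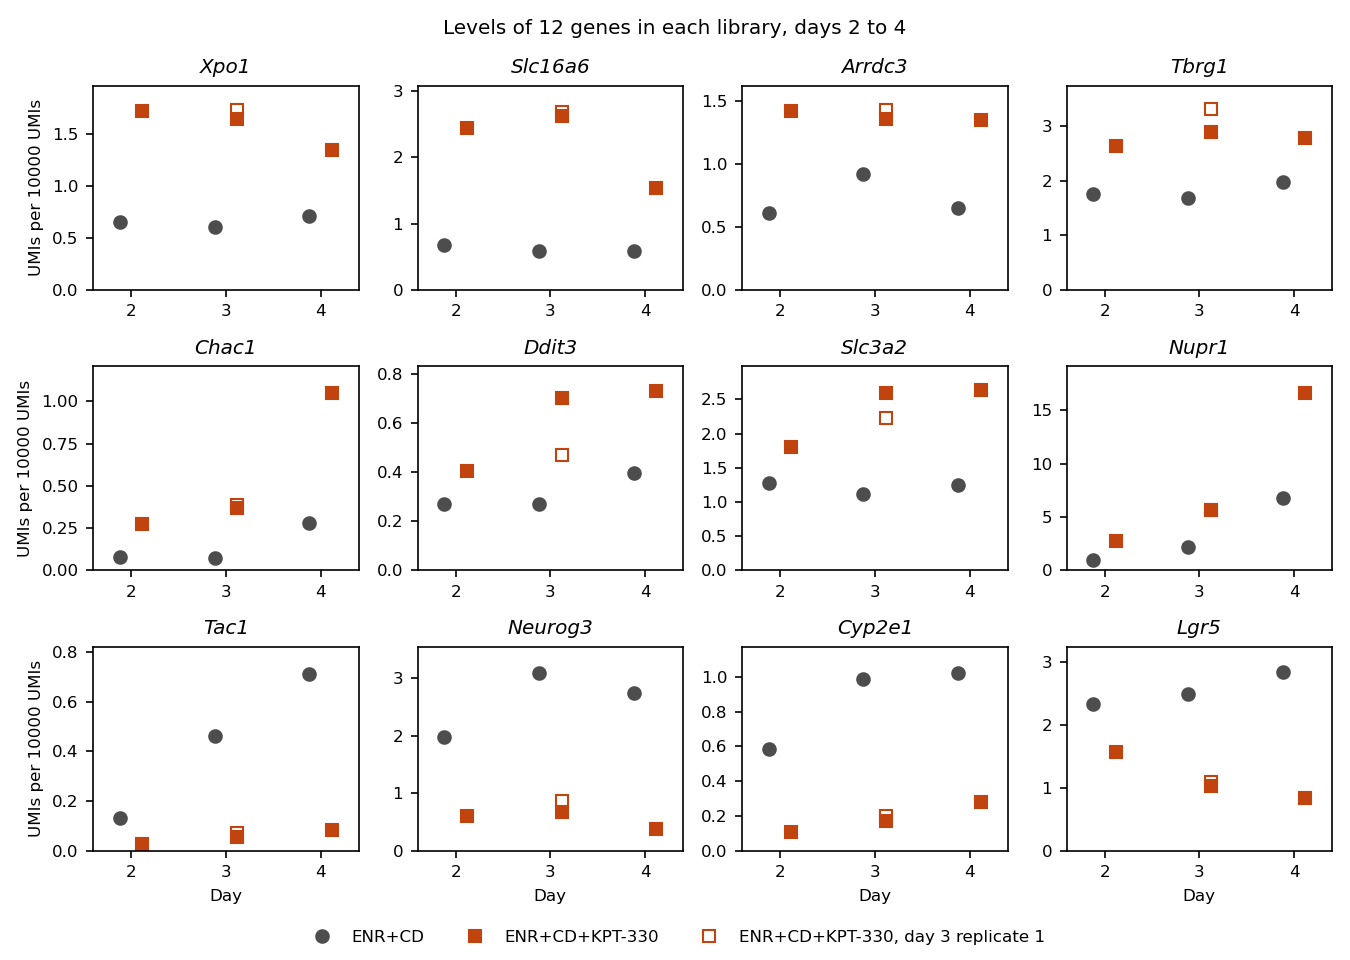
Levels of 12 genes against day, in UMIs per 10000 UMIs of the library on an axis from 0. Each point is 1 of the 7 libraries, circles for ENR+CD and squares for KPT-330, with an open square for day 3 replicate 1. Xpo1 lay at 0.607 to 0.716 without and 1.35 to 1.73 with KPT-330, and Tac1 at 0.131 to 0.713 without and 0.0257 to 0.0853 with it.

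The 12 raised genes with the smallest p (mean level of at least 0.2 and higher in each KPT-330 library than in the control of its day) held membrane transporters, stress genes and antimicrobial genes. Chac1 (chr2:119351229-119354381, plus strand) measured 0.0781, 0.0735 and 0.279 in ENR+CD and 0.273, 0.389, 0.368 and 1.05 with KPT-330, highest at day 4 in both exposures, so that the groups overlapped across days but not within one (2.34 ± 0.15 (SE), edgeR adjusted p = 0.000186). Nupr1, a small chromatin-binding protein induced by stress, was also highest at day 4 in both exposures, at 0.983, 2.15 and 6.81 in ENR+CD and 2.75, 5.64, 5.62 and 16.6 with KPT-330 (1.69 ± 0.13 (SE), edgeR adjusted p = 0.000232). Transporters were led, after Slc16a6, by the fructose carrier gene Slc2a5 at 1.25, 0.791 and 0.566 in ENR+CD and 2.83, 3.32, 3.27 and 1.73 with KPT-330 (1.95 ± 0.19 (SE), edgeR adjusted p = 0.000658). Within the cell classes described below, Slc2a5 could be tested in 5, rose in 1 and had fits below 0 in 4. Slc43a2, which carries large neutral amino acids, and Lrrc8d, a subunit of the volume-regulated anion channel, had log2 fold changes of 1.24 and 1.20. Reg3b, a secreted C-type lectin of mucosal defence, stood at 0.959, 0.984 and 0.912 in ENR+CD and 4.03, 3.48, 8.37 and 4.39 with KPT-330 (2.63 ± 0.28 (SE), edgeR adjusted p = 0.00106). All its KPT-330 values lay above all its control values, and the day 3 pair differed by more than the controls did among themselves. The remaining raised genes were Cyp2d34 (2.13), Lyz2 (1.34), Sun2 (1.37) and Krt23 (1.23), for a cytochrome P450, the macrophage-type lysozyme next to Lyz1, a linker of the nuclear envelope to the cytoskeleton and a type I keratin.

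Tac1, Neurog3 and Chgb, genes of the enteroendocrine lineage, were among the 12 lowered genes with the smallest p. Tac1, which encodes the precursor of substance P (chr6:7554879-7565834, plus strand), measured 0.131, 0.464 and 0.713 in ENR+CD and 0.0257, 0.0700, 0.0566 and 0.0853 with KPT-330. Controls rose with day while the KPT-330 libraries did not exceed 0.0853, with no overlap (-2.48 ± 0.16 (SE), edgeR adjusted p = 0.000186). Neurog3, the transcription factor that starts enteroendocrine fate (chr10:62133090-62134763, plus strand), measured 1.98, 3.09 and 2.74 in ENR+CD and 0.605, 0.857, 0.675 and 0.369 with KPT-330, again without overlap (-1.86 ± 0.18 (SE), edgeR adjusted p = 0.000658). Chgb, a granin of hormone granules, had values of 7.01, 23.0 and 26.7 in ENR+CD and 1.08, 5.56, 3.44 and 6.04 with KPT-330 (-2.09 ± 0.21 (SE), edgeR adjusted p = 0.000982). Outside this lineage, the ethanol-metabolising P450 gene Cyp2e1 stood at 0.585, 0.987 and 1.02 in ENR+CD and 0.107, 0.202, 0.173 and 0.282 with KPT-330 and did not overlap either (-1.95 ± 0.15 (SE), edgeR adjusted p = 0.000266). The other lowered genes were Gif (-2.64), Pak3 (-2.04), Cd177 (-1.94), Akr1b8 (-1.92), Miat (-1.87), Fgd2 (-1.74), Phldb2 (-1.20) and Wdr6 (-0.93). They code for gastric intrinsic factor, a p21-activated kinase, a neutrophil surface antigen, an aldo-keto reductase, a long non-coding RNA, a Cdc42 exchange factor, a cortical microtubule anchor and a WD-repeat protein. Of these, Miat and Fgd2 were among the leading genes of the enteroendocrine-like cluster led by Neurog3 in the clusters described below. Pak3 was among those of a Neurog3-led enteroendocrine-like cluster at resolution 0.8. Of the 24 genes 13 kept their call without any 1 library and 11, Krt23, Cyp2d34, Reg3b, Sun2, Lyz2, Cd177, Phldb2, Gif, Chgb, Akr1b8 and Wdr6, lost it without the day 3 control and in no other omission. Annotated genes on the opposite strand overlap 8 of the 24 (Lrrc8d, Miat, Neurog3, Phldb2, Slc16a6, Slc43a2, Sun2 and Wdr6), and whether the counting used strand is not given in the sources used here.

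Genes of the integrated stress response rose in part and none fell. Of 28 tested, 16 rose and 12 did not pass, with a median of 0.48 beside -0.0001 over all genes and 13.2% of all genes raised. The median ranged over 0.40 to 0.62 with any 1 library left out, and 1, 4 and 4 members kept a call in that direction without the day 3 control, the day 4 control and the day 4 KPT-330 library. The upstream factors were raised at the transcript level, Atf4 (0.66), Atf5 (0.88), Ddit3 (1.18) and Cebpg (0.58), the third coding for CHOP. Atf4 measured 4.4, 4.31 and 6.06 in ENR+CD and 4.88, 6.51, 6.37 and 7.39 with KPT-330, with the day 2 KPT-330 library inside the range of the controls. Ddit3 measured 0.268, 0.268 and 0.398 in ENR+CD and 0.405, 0.471, 0.702 and 0.732 with KPT-330, where every KPT-330 library again exceeded every control. Feedback genes Trib3 and Ppp1r15a, which code for a pseudokinase that restrains ATF4 and for the eIF2α phosphatase subunit GADD34, rose by 1.18 and 0.77. For amino acid supply, Slc3a2 (1.22), Psat1 (0.89) and Aldh18a1 (0.36) rose, the heavy chain of amino acid exchangers and enzymes of serine and proline synthesis. The cytosolic synthetases Nars (0.65), Cars (0.50), Sars (0.46) and Mars (0.35) rose as well. Values for Asns (0.24), Phgdh (0.38), Shmt2 (0.20), Mthfd2 (0.09), Slc7a11 (0.19) and Sesn2 (-0.02) did not pass the test, although several are textbook ATF4 targets. The same-day log2 ratios of Chac1 after TMM scaling were 1.98, 2.75, 2.60 and 2.32, and those of Trib3 0.21, 1.59, 1.68 and 1.64.

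The amino acid response element bound by ATF4 and its C/EBP partners has the core TGATGNAA, which was looked up on both strands in RefSeq promoter windows (GRCm38.p6, 250 bases before to 50 after the gene start). It was found in 3.97% of all 32851 windows, in 2.05% of the 9072 windows of tested genes, in 7 of the 24 windows matched to the list (29.2%) and in 4 of the 13 windows of its raised members (30.8%). Shown are stretches of 28 bases on the strand of the gene with the core in capitals, for 3 raised members and for Asns, which did not pass the test. The fourth raised member with a match is Trib3.
Chac1, chr2:119351039-119351066, plus strand: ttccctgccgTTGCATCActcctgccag
Atf3, chr1:191183426-191183453, minus strand: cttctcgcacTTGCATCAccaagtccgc
Vldlr, chr19:27216810-27216837, plus strand: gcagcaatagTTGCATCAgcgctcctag
Asns, chr6:7693215-7693242, minus strand: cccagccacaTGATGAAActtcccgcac
The core lies in reverse in Chac1, Atf3 and Vldlr and forward in Asns. A match is a description of these letters, not of binding, and the gene without a call carries one as well as the genes that rose.

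Of 28 genes of endoplasmic reticulum folding and the unfolded protein response 20 rose and none fell (median 0.47). Leaving out any 1 library gave medians of 0.45 to 0.50, and without the same 3 libraries 0, 4 and 5 members were called in that direction. They included genes of ER-associated degradation, Herpud1 (0.93), Edem1 (0.73), Derl3 (1.46) and Syvn1 (0.43), and the chaperone genes Dnajc3 (0.80), Dnajb9 (0.75) and Hspa5 (0.60). Hspa5, which encodes BiP, measured 16.3, 18.9 and 21.7 in ENR+CD and 18.5, 26.7, 21.2 and 27.3 with KPT-330, so that the exposures overlapped across days although each KPT-330 library exceeded its own control. Of cytosolic heat shock proteins and chaperonins, 2 of 25 rose (8%, under the 13.2% of all genes), Bag3 (0.67) and Hspa1a (2.15). The median of this list was 0.02, with Hsp90aa1 at 0.27 and Hspa8 at 0.16. Hspa1a shares most of its sequence with Hspa1b, so reads may be split between them. Of 23 NRF2 targets Gsta4 (1.12), Ephx1 (1.01), Fth1 (0.85) and Me1 (0.84) rose and Akr1b8 (-1.92) and Cbr3 (-0.82) fell (17.4% and 8.7%, beside 13.2% and 11.1% of all genes), while Nqo1 stood at 0.64 and Hmox1 at 0.77 without a call. Of 27 genes for p53 and its targets, 8 rose, among them Tbrg1 (0.98), Pmaip1 (1.25), Fas (1.27), Bbc3 (0.85), Cdkn1a (0.56) and Perp (0.65), and 2 fell, Gadd45a (-0.85) and Trp53 (-0.47). Without the day 3 control, the day 4 control and the day 4 KPT-330 library 0, 1 and 1 of them were still called raised. Mdm2 (0.13), Sesn1 (0.17) and Zmat3 (0.15) did not pass. The p53 median of 0.30 was -0.0023 with library totals alone, where the median over all genes was -0.30. It lay above the median of all genes under either scaling.

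**Figure D2:**
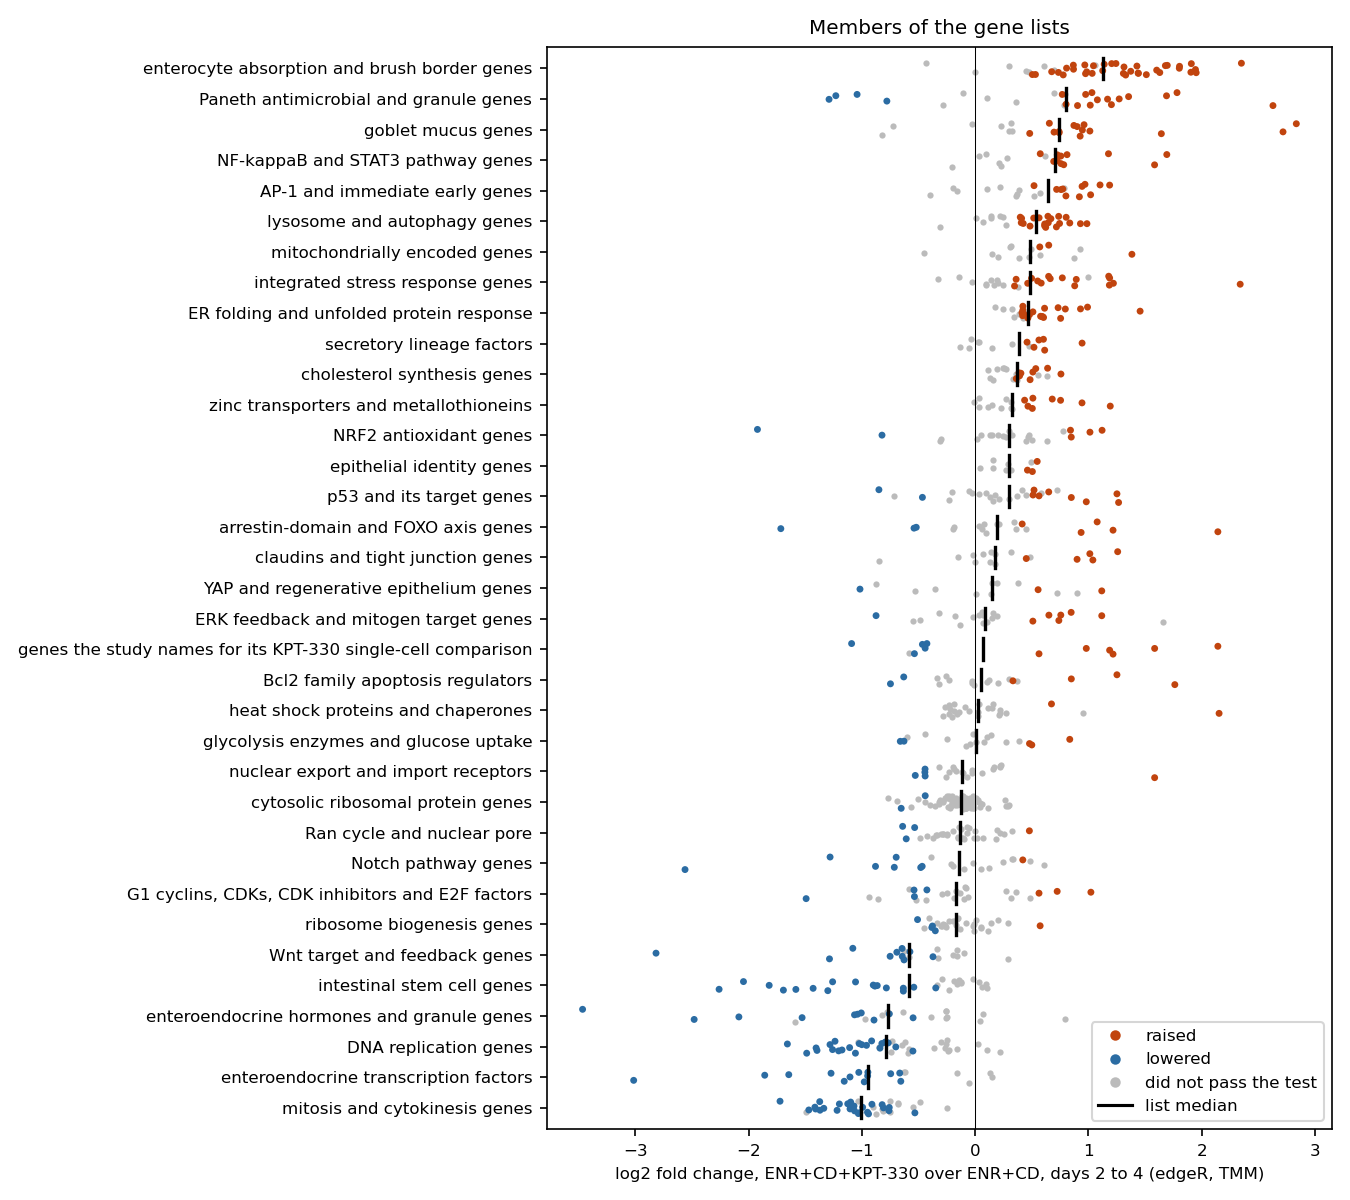
Log2 fold change of each tested member of the gene lists (days 2 to 4, KPT-330 against ENR+CD, edgeR), 1 row a list with at least 10 tested members. A bar marks the median, and raised, lowered and uncalled genes have separate colours. Enterocyte genes had a median of 1.13 and mitosis genes of -1.01, beside -0.0001 over all genes.

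Many differentiation genes of 3 epithelial lineages rose in the summed libraries, where more cells of a type and more RNA per cell cannot be told apart. Of 44 enterocyte genes 36 rose and none fell (median 1.13). Without those 3 libraries in turn 1, 14 and 14 members were called, and omission of any 1 of the 7 gave medians of 0.87 to 1.55. Carriers and digestive enzymes led, Slc2a5 (1.95), Slc5a1 (1.94), Lct (2.35) and Sis (1.80), with lipid handling genes Apoa4 (1.90), Fabp1 (1.44) and Mttp (1.43) behind them. Sis, for sucrase-isomaltase, measured 16.0, 12 and 4.4 in ENR+CD and 34.0, 23.5, 41.6 and 17.8 with KPT-330. Controls fell with day, and each KPT-330 library exceeded its own control, with the lowest KPT-330 values just above the highest control (1.80 ± 0.26 (SE), edgeR adjusted p = 0.00339). Fabp1, a fatty acid carrier of the cytosol, also dropped with day in both exposures, 29.8, 8.91 and 3.19 in ENR+CD and 50.9, 18.5, 22.2 and 8.70 with KPT-330, so that the groups overlapped across days (1.44 ± 0.20 (SE), edgeR adjusted p = 0.00276). The nuclear receptor gene Hnf4a (-0.00) did not pass, while its paralogue Hnf4g did (1.13).

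Of 25 Paneth genes 14 rose and 4 fell (median 0.80). Leaving out any 1 library gave medians of 0.79 to 0.99, and without the same 3 libraries 1, 9 and 9 members were called in that direction. Lyz1, the lysozyme of Paneth granules, measured 40.7, 77.0 and 136 in ENR+CD and 67.5, 190.5, 168 and 303 with KPT-330, which climbed with day in both exposures, and each KPT-330 library exceeded the control of its day (1.35 ± 0.25 (SE), edgeR adjusted p = 0.0068). The protease gene Mmp7, which activates defensins, showed the same course at 7.70, 18.8 and 27.6 in ENR+CD and 15.4, 35.9, 33.0 and 45.4 with KPT-330 (1.17 ± 0.16 (SE), edgeR adjusted p = 0.00283). Alpha-defensins were split: Defa21 (1.03), Defa22 (0.98), Defa24 (0.90) and Defa17 (0.77) rose, Defa26 (-1.29) fell and Defa3 (0.78) did not pass, and since these genes are near-copies the counting could move reads between them. Further lowered members were Pnliprp2 (-1.23), Pnliprp1 (-1.04) and Rnase1 (-0.78), for pancreatic-type lipases and a ribonuclease. Ang4 stood at 2.68, 11.1 and 29.9 in ENR+CD and 2.89, 7.84, 6.48 and 19.2 with KPT-330 with no call (-0.11), nor did Itln1 (0.69) pass. Nupr1, which leads the raised members by p, is also induced by stress, and Reg3b, Reg3g and Reg3a (2.63, 1.78 and 1.08) are expressed by enterocytes too.

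Of 21 goblet genes 14 rose and none fell (median 0.74). Without those 3 libraries in turn 0, 8 and 8 members were called, and omission of any 1 of the 7 gave medians of 0.66 to 0.80. Muc2, the gel-forming mucin, measured 0.896, 1.24 and 2.20 in ENR+CD and 1.65, 1.57, 2.08 and 3.04 with KPT-330, above the control of its day in each KPT-330 library (0.93 ± 0.12 (SE), edgeR adjusted p = 0.00272). Clca3 and Zg16 had the largest fold changes of the list (2.83 and 2.72), and Zg16 stood at 0.00428 (3 UMIs) in the day 4 control against 1.67 with KPT-330. Of 14 secretory lineage factors 6 rose, Klf4 (0.94), Atoh1 (0.61), Nr5a2 (0.60), Spdef (0.56), Xbp1 (0.52) and Bhlha15 (0.46), and the count fell to 0, 2 and 2 without the same 3 libraries. Atoh1, the master factor of secretory fate, measured 0.308, 0.470 and 0.391 in ENR+CD and 0.481, 0.541, 0.557 and 0.414 with KPT-330. Its day 4 values nearly met, with the call resting on scaled counts (0.61 ± 0.11 (SE), edgeR adjusted p = 0.00674). Gfi1 (-0.14), Sox9 (0.03) and Foxa2 (-0.06) did not pass.

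Enteroendocrine genes fell in part and none rose in the summed libraries, where fewer cells of a type and less RNA per cell cannot be told apart. Of 19 transcription factors of the lineage 13 fell and none rose (median -0.95), and of 24 hormone and granule genes 10 fell and none rose (median -0.77), beside 11.1% of all genes lowered. For the factors, 2, 8 and 8 members fell without the day 3 control, the day 4 control and the day 4 KPT-330 library, and for the hormones 2, 14 and 15. Omission of 1 library moved the median of the factors over -1.06 to -0.65 and that of the hormones over -1.21 to -0.48. Pax4, a repressor downstream of Neurog3, had the largest change among the factors, 0.188, 0.317 and 0.287 in ENR+CD and 0.0146, 0.0511, 0.0283 and 0.0213 with KPT-330, with no overlap (-3.02 ± 0.25 (SE), edgeR adjusted p = 0.000389). Next in the cascade, Rfx6 (-1.27), Nkx2-2 (-0.98), Neurod1 (-1.03), Insm1 (-0.75) and Lmx1a (-1.65) fell, the last a factor of serotonin cells. Values for Isl1 (0.14), Pax6 (-0.16) and Pdx1 (-0.06), the first tied to peptide hormone cells, did not pass. Tph1, which makes serotonin, measured 0.0430, 0.172 and 0.225 in ENR+CD and 0.00343, 0.0122, 0.0223 and 0.00474 with KPT-330 (-3.47 ± 0.34 (SE), edgeR adjusted p = 0.000773), with as few as 2 UMIs in 1 library. With Tac1, which the same enterochromaffin cells release, it was lower than the control of its day in each KPT-330 library. Sst and Nts had too few UMIs to be tested.

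The difference in hormone genes was wider at day 2 than at day 4 for some members. After TMM scaling, 22 of the 24 hormone and granule genes were lower than the same-day control at day 2, 23 in each day 3 library and 12 at day 4. The share of all genes lower in each of these libraries is not given, so these counts have no background beside them. The change of the effect per day, tested as exposure by numeric day, passed for 3 of 12156 genes (0.0247%), all upward, with 482 upward and 140 downward at an unadjusted p under 0.05. Gcg, for proglucagon, measured 0.126, 1.24 and 3.41 in ENR+CD and 0.00428, 0.336, 0.401 and 4.95 with KPT-330. From 5 UMIs in the day 2 KPT-330 library it came to exceed the control at day 4. Its log2 effect, below 0 at day 2, moved upward by 2.60 ± 0.23 (SE) a day (edgeR adjusted p = 0.00216). Cck, for cholecystokinin, measured 1.03, 4.51 and 5.22 in ENR+CD and 0.0360, 1.67, 1.08 and 4.62 with KPT-330 and Scg2, for secretogranin II, 0.196, 1.45 and 2.00 in ENR+CD and 0.0377, 0.923, 0.909 and 3.26 with KPT-330. Their effects grew by 2.36 ± 0.30 (edgeR adjusted p = 0.0263) and 1.63 ± 0.18 (edgeR adjusted p = 0.00894). Same-day log2 ratios of Chgb (-2.52, -1.70, -2.46 and -1.73) and Tac1 (-2.17, -2.38, -2.75 and -2.65) showed no such course. The test rests on 1 library per exposure at days 2 and 4, and 88 genes were called upward without day 3 KPT-330 replicate 1 and 180 without replicate 2. The day 4 KPT-330 library was also the shallowest of the 7, and the part of depth in this change was not tested.

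**Figure D3:**
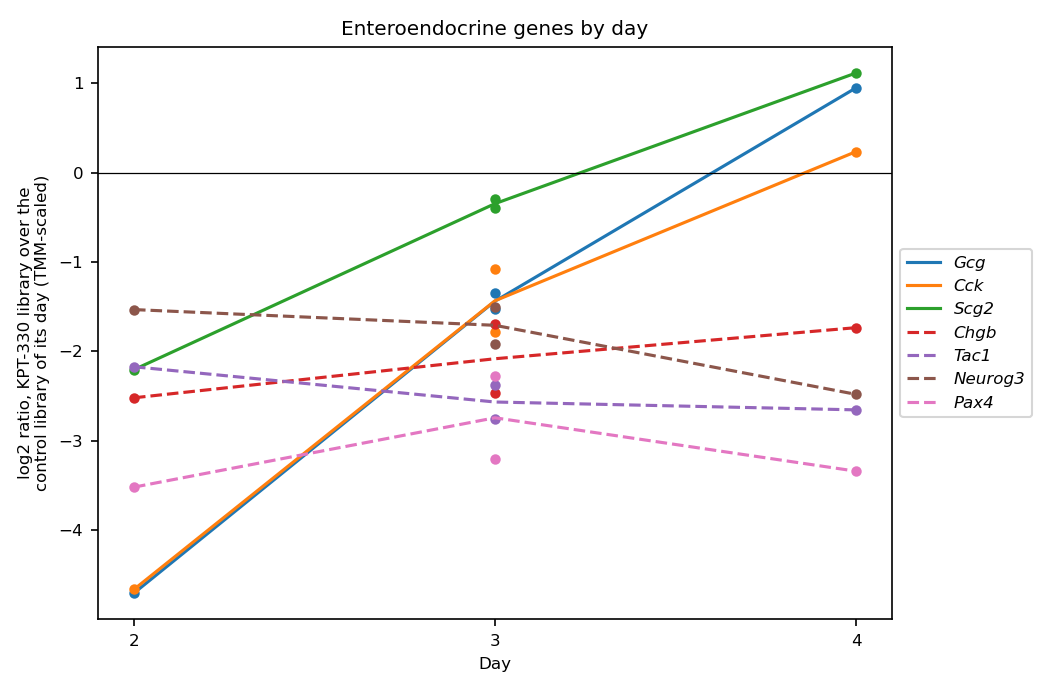
Log2 ratio of each KPT-330 library to the ENR+CD library of its day, TMM-scaled, against day for 7 enteroendocrine genes. Points are libraries, and lines join the mean of each day. Gcg went from -4.70 at day 2 to 0.95 at day 4, while Tac1 stayed between -2.75 and -2.17.

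Intestinal stem cell genes fell in part in the summed libraries, where fewer cells of a type and less RNA per cell cannot be told apart. Of 30 tested 17 fell and none rose (median -0.59). Leaving out any 1 library gave medians of -0.75 to -0.45, and without the same 3 libraries 0, 7 and 8 members were called in that direction. Lgr5, the R-spondin receptor that marks crypt base stem cells, measured 2.33, 2.49 and 2.85 in ENR+CD and 1.57, 1.09, 1.03 and 0.831 with KPT-330, without overlap and with the gap widest at day 4 (-0.89 ± 0.16 (SE), edgeR adjusted p = 0.00672). Smoc2 measured 10.6, 9.98 and 10.5 in ENR+CD and 8.19, 4.91, 5.0 and 4.92 with KPT-330, also without overlap (-0.54 ± 0.14 (SE), edgeR adjusted p = 0.0235). Others lowered were Igfbp4 (-2.26), Aqp4 (-2.05), Vim (-1.69), Tnfrsf19 (-1.43) and Ascl2 (-1.30), whereas Lrig1 (-0.16), Sox9 (0.03) and Hopx (-0.14) did not pass. Of 19 Wnt targets 10 fell and none rose (median -0.58), under the same limit, with CHIR99021 in both media. Without those 3 libraries in turn 0, 3 and 3 members were called, and omission of any 1 of the 7 gave medians of -0.62 to -0.47. Axin2, a feedback inhibitor of β-catenin, measured 3.19, 3.54 and 4.14 in ENR+CD and 2.33, 1.64, 1.68 and 1.82 with KPT-330 (-0.63 ± 0.13 (SE), edgeR adjusted p = 0.0101), and the secreted Wnt antagonist gene Wif1 had the largest change of the list (-2.82). Myc (-0.20), Rnf43 (-0.33) and Znrf3 (-0.16) did not pass. In the Notch pathway 7 of 20 fell and 1 rose, with 1, 1 and 1 lowered without the same 3 libraries. Mfng, a glycosyltransferase that modifies Notch receptors, measured 0.106, 0.206 and 0.172 in ENR+CD and 0.00771, 0.0411, 0.0432 and 0.0166 with KPT-330 (-2.56 ± 0.29 (SE), edgeR adjusted p = 0.00156), and Notch1 (-0.48), Notch2 (-0.71) and Lfng (-0.70) fell less. Hes1, the main target of Notch, stood at 0.506, 0.396 and 0.419 in ENR+CD and 0.443, 0.294, 0.362 and 0.294 with KPT-330 and did not pass (-0.02).

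Proliferation genes were lower with KPT-330 in the summed libraries, where fewer cycling cells and less RNA per cell cannot be told apart. Of 40 mitosis genes 27 fell (median -1.01), and of 41 DNA replication genes 22 fell (median -0.79), with none raised in either. With any 1 library left out the median of the mitosis genes was -1.25 to -0.82 and that of the replication genes -0.95 to -0.66, and without the same 3 libraries 0, 0 and 0 mitosis genes and 0, 3 and 4 replication genes were called lowered. Mki67, the antigen of cycling cells, measured 2.39, 1.38 and 1.91 in ENR+CD and 1.27, 0.790, 0.247 and 0.495 with KPT-330 (-1.09 ± 0.32 (SE), edgeR adjusted p = 0.0335). On unscaled levels all KPT-330 values lay below all control values, as they did for 37.6% of all genes, while the day 3 pair ranged from 0.790 to 0.247. After TMM scaling the exposures overlapped, with the day 2 KPT-330 library above the day 3 control. The motor and spindle genes Nusap1 (-1.72), Cdc20 (-1.42), Kif20a (-1.41) and Tpx2 (-1.34) and the cyclin genes Ccna2 (-1.37) and Ccnb2 (-1.37) fell, while Top2a (-0.49), Cdk1 (-0.82) and Birc5 (-0.82) did not pass. Replication factors fell across the helicase and its loading, Mcm3 (-1.26), Mcm5 (-1.28), Mcm6 (-1.02) and Cdc6 (-1.24). So did Clspn (-1.66) and, in DNA methylation upkeep, Uhrf1 (-1.49) and Dnmt1 (-0.82). The sliding clamp gene Pcna (0.10) and the flap nuclease gene Fen1 (0.02) did not pass. Of 25 cyclins, kinases, inhibitors and E2F factors of G1, Cdkn2b (1.02), Rb1 (0.72) and Cdkn1a (0.56) rose and E2f7 (-1.49), Cdkn1b (-0.54), Cdk4 (-0.54) and Cdk6 (-0.43) fell (12% and 16%, near the 13.2% and 11.1% of all genes), with a median of -0.17.

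Signalling and organelle genes rose in several lists. Of 28 lysosome and autophagy genes 20 rose and none fell (median 0.54), with the cathepsins Ctsb (0.99), Ctsh (0.93), Ctsz (0.83) and Ctsd (0.80), the membrane protein gene Lamp2 (0.64) and the autophagy receptor gene Sqstm1 (0.74). Leaving out any 1 library gave medians of 0.50 to 0.61, and without the same 3 libraries 0, 8 and 8 members were called in that direction. Ctsd, for a lysosomal aspartic protease, measured 3.51, 2.87 and 3.71 in ENR+CD and 4.75, 3.89, 5.16 and 4.81 with KPT-330, above the control of its day in each KPT-330 library (0.80 ± 0.14 (SE), edgeR adjusted p = 0.00619). Of 22 AP-1 and immediate early genes 11 rose (median 0.64), Klf6 (1.02), Maff (1.1), Dusp1 (0.97), Fosl2 (0.80), Junb (0.77) and Jund (0.76) among them, while Fos (0.57), Jun (0.39) and Egr1 (0.36) did not pass. Without those 3 libraries in turn 0, 1 and 1 members were called, and omission of any 1 of the 7 gave medians of 0.48 to 0.84. Atf3, which pairs with JUN, measured 5.74, 5.04 and 7.74 in ENR+CD and 8.42, 6.13, 13 and 17.5 with KPT-330, with the day 3 pair apart (1.19 ± 0.25 (SE), edgeR adjusted p = 0.0114). Of 18 NF-κB and STAT3 pathway genes 11 rose (median 0.71), chemokines Cxcl16 (1.69) and Ccl20 (1.58), the non-canonical subunits Relb (0.76) and Nfkb2 (0.76) and the inhibitor gene Nfkbia (0.69). Leaving out any 1 library gave medians of 0.57 to 0.84, and without the same 3 libraries 0, 3 and 3 members were called in that direction. Of 22 ERK feedback and mitogen genes, the phosphatase genes Dusp6 (0.74), Dusp4 (0.65) and Dusp5 (0.51), the ligands Areg (1.12) and Hbegf (0.85) and Errfi1 (0.76) rose, Spred3 (-0.88) fell, and Etv4 (-0.49), Etv5 (-0.55) and Spry2 (-0.32) did not pass. Their shares raised and lowered were 27.3% and 4.55%, beside 13.2% and 11.1% of all genes.

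The remaining lists were of metabolism, cell junctions, cell death and organelles. Of 21 cholesterol synthesis genes 9 rose (median 0.37), Sc5d (0.76), Hsd17b7 (0.64) and Cyp51 (0.53) among them, and 0, 1 and 1 were called without the same 3 libraries. Of 18 zinc genes 8 rose (median 0.32), with the metallothioneins Mt2 (0.94) and Mt1 (0.68) and the exporter gene Slc30a10 (1.19), and 0, 1 and 1 were called without those libraries. Of 16 tight junction genes 5 rose (31.25%), Cldn23 (1.26), Cldn2 (1.04), Cldn15 (1.01), Cldn4 (0.90) and F11r (0.45). Of 18 members of the Bcl2 family Bcl2l15 (1.76), Pmaip1 (1.25), Bbc3 (0.85) and Bad (0.33) rose and Bnip3 (-0.75) and Bcl2 (-0.63) fell (22.2% and 11.1%, beside 13.2% and 11.1% of all genes). Of 19 arrestin-domain and FOXO genes, Slc16a6 (2.14), Arrdc3 (1.22), Klf9 (1.08), Irs2 (0.94) and Cited2 (0.41) rose and Pik3ip1 (-1.72), Cdkn1b (-0.54) and Sesn3 (-0.52) fell (26.3% and 15.8%). Of 17 glycolysis genes Pfkp (0.83), Gpi1 (0.50) and Ldha (0.48) rose and Pdk1 (-0.66) and Pfkl (-0.63) fell (17.65% and 11.76%, near the 13.2% and 11.1% of all genes). Within each of the 7 cell classes described below no glycolysis gene rose, and the class medians were -0.47 to -0.14. Of 13 YAP and regeneration genes Areg (1.12) and Anxa5 (0.56) rose and Amotl2 (-1.02) fell (15.4% and 7.69%, near the shares of all genes), and of 6 long non-coding RNAs Neat1 (0.70) rose and Miat (-1.87) fell (16.7% each, 1 gene in each direction). Of 31 ribosome biogenesis genes Eif6 (0.57), whose product keeps ribosomal subunits apart, rose and 4 fell (3.23% and 12.9%, under and near the shares of all genes). Of 76 ribosomal protein genes 2 fell (2.63%, median -0.12). Of 14 tested transcripts encoded in mitochondria 3 rose (21.4%), mt-Ti (1.38), mt-Nd6 (0.65) and mt-Nd2 (0.57), in a comparison where the mitochondrial share of UMIs differed between libraries. With library totals alone, which set the median of all genes to -0.30, medians turned negative for the lists of tight junctions (-0.13), arrestins and FOXO (-0.10), YAP (-0.15), long non-coding RNAs (-0.15), ERK feedback (-0.21), the Bcl2 family (-0.25), heat shock (-0.28) and glycolysis (-0.29). Of the epithelial identity genes Krt19 (0.55), Vil1 (0.50) and Elf3 (0.46) rose among 10. Of 13 tuft cell markers 2 could be tested and Pou2f3 (-1.24) fell, and neither of the 2 tested markers from outside the epithelium passed the test, the myeloid marker Itgam (-0.58) among them.

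Within cell classes fewer genes passed. Clusters over all 19877 cells were called by markers, UMIs were summed per library and class, and marker genes were left out of the counts. In stem I-like cells (425 with and 949 without KPT-330, 45 to 451 per library) 194 genes rose and 105 fell of 8719 (3.43%). In goblet-like cells 133 rose (1.66%) and 67 fell of 8003 (2.5% in all), and in cluster 8, which was left unnamed and is led by Lyz1, Ccl9 and Spink4, 88 and 58 of 7493 (1.95%). In enterocyte-like cells 52 rose and 74 fell of 9501 (1.33%), in Paneth-like cells 34 and 31 of 8285 (0.785%), in secretory progenitor-like cells 21 and 15 of 5800 (0.621%) and in enteroendocrine-like cells 8 (0.0847%) and 30 of 9448 (0.402% in all). Classes held 25 to 534 cells per library, the secretory progenitor-like class could use 6 libraries, and differences between classes were not tested. Enterocyte-like cells came mostly from cluster 4 without KPT-330 (68.3%) and cluster 9 with it (50.6%). Paneth-like cells came from clusters 1 and 6, the second holding 45.8% of them without and 20.8% with KPT-330, and enteroendocrine-like cells from cluster 7, led by Neurog3 (73.9% and 59.3%), and cluster 10, led by Gcg (26.1% and 40.7%). The counts moved with single libraries: without day 3 KPT-330 replicate 1 they came to 603 in Paneth-like, 405 in cluster 8, 382 in enterocyte-like, 382 in goblet-like and 77 in enteroendocrine-like cells, and without the day 3 control to 71 in stem I-like, 27 in cluster 8, 21 in enterocyte-like, 24 in goblet-like and 3 each in enteroendocrine-like and secretory progenitor-like cells. Without the day 4 control, the day 2 control, the day 2 KPT-330 or the day 4 KPT-330 library, counts ranged from 17 to 68 outside the stem I-like class, where the lowest was 85 (day 4 KPT-330 library). Without day 3 KPT-330 replicate 2 they were 156 in stem I-like, 3 in secretory progenitor-like and 73 in enteroendocrine-like cells.

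Xpo1, Slc16a6 and Arrdc3 rose in all 7 classes, of 353 genes raised in at least 1. Log2 fold changes of Xpo1 ranged from 1.69 ± 0.15 (SE) in enterocyte-like to 2.41 ± 0.22 in cluster 8 cells, and those of Slc16a6 from 1.09 ± 0.17 in Paneth-like to 2.85 ± 0.22 in stem I-like cells. Cldn4, a claudin, and Krt23 rose in 6 classes, and Pnliprp2, a lipase, fell in 6 of them, the most of 282 genes lowered in at least 1. Cyp2e1 fell in all 5 classes in which it could be tested, with a log2 fold change of -3.88 ± 0.38 in stem I-like cells. In Paneth-like cells Chac1 rose by 1.59 ± 0.18 and Rragd, a Rag GTPase of lysosomal amino acid sensing, by 1.82 ± 0.24, while Anpep, Defa26 and Rnase1 had log2 fold changes of -1.74 ± 0.16, -2.0 ± 0.19 and -1.68 ± 0.17. Defa26 is among the leading genes of cluster 6, whose part of the class differed between exposures as given above. In goblet-like cells Chac1 rose by 3.41 ± 0.33. In enteroendocrine-like cells Tac1 (-2.18 ± 0.20) and Pax4 (-2.26 ± 0.22) fell with Igfbp2 (-2.49 ± 0.25), a binding protein of insulin-like growth factors, in a class whose 2 clusters also took different parts in each exposure. In stem I-like cells Cps1, of ammonia detoxification, and the stem cell gene Igfbp4 fell (-1.84 ± 0.21 and -1.40 ± 0.17). Mt4, a metallothionein, and the peptidase gene Naaladl1 fell in enterocyte-like cells (-3.64 ± 0.22 and -2.26 ± 0.17). In the secretory progenitor-like class Nupr1 rose (1.61 ± 0.24) and Gif fell (-2.06 ± 0.28). Transcripts free in solution reach cells that do not make them, and their part in genes of other lineages within a class was not tested.

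Lysosome and autophagy genes had medians above 0 in all 7 classes, 0.24 to 0.51, the highest in stem I-like cells, where 12 of 27 rose. Integrated stress response genes had medians of 0.03 to 0.49 over the classes, with 6 of 25 raised in goblet-like, 2 of 26 in Paneth-like and 0 of 23 in stem I-like cells, where 1 fell. Enterocyte genes, whose median was 1.13 in the summed libraries, had class medians of -0.13 to 0.22, with cluster markers left out, and in enterocyte-like cells 4 of 34 rose and 1 fell. AP-1 genes rose in 10 of 20 cases in goblet-like cells (median 0.66), whereas in enterocyte-like cells none of 21 rose and 2 fell (median -0.28). Of 23 NRF2 targets 7 fell and none rose in enterocyte-like cells (median -0.35), beside a summed median of 0.30. The NRF2 targets Gstm1 and Akr1b8 are among the leading genes of cluster 4, which held 68.3% of this class without and 47.6% with KPT-330. The part of this cluster mix in the enterocyte-like values was not tested. DNA replication genes, with a summed median of -0.79, had class medians of -0.30 to 0.09, the lowest in stem I-like cells, where 3 of 32 fell and none rose. With markers left out, 2 of 21 stem cell genes rose and 2 fell in stem I-like cells (median -0.24). There 2 of 13 Wnt targets rose and none fell (median -0.05). In enteroendocrine-like cells 1 of 17 hormone and granule genes and 1 of 16 transcription factors fell and none rose (medians -0.25 and -0.15). Cycling (stem III)-like cells, named from mitosis genes, had too few libraries with 20 cells or more to be tested (198 cells without and 69 with KPT-330).

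**Figure D4:**
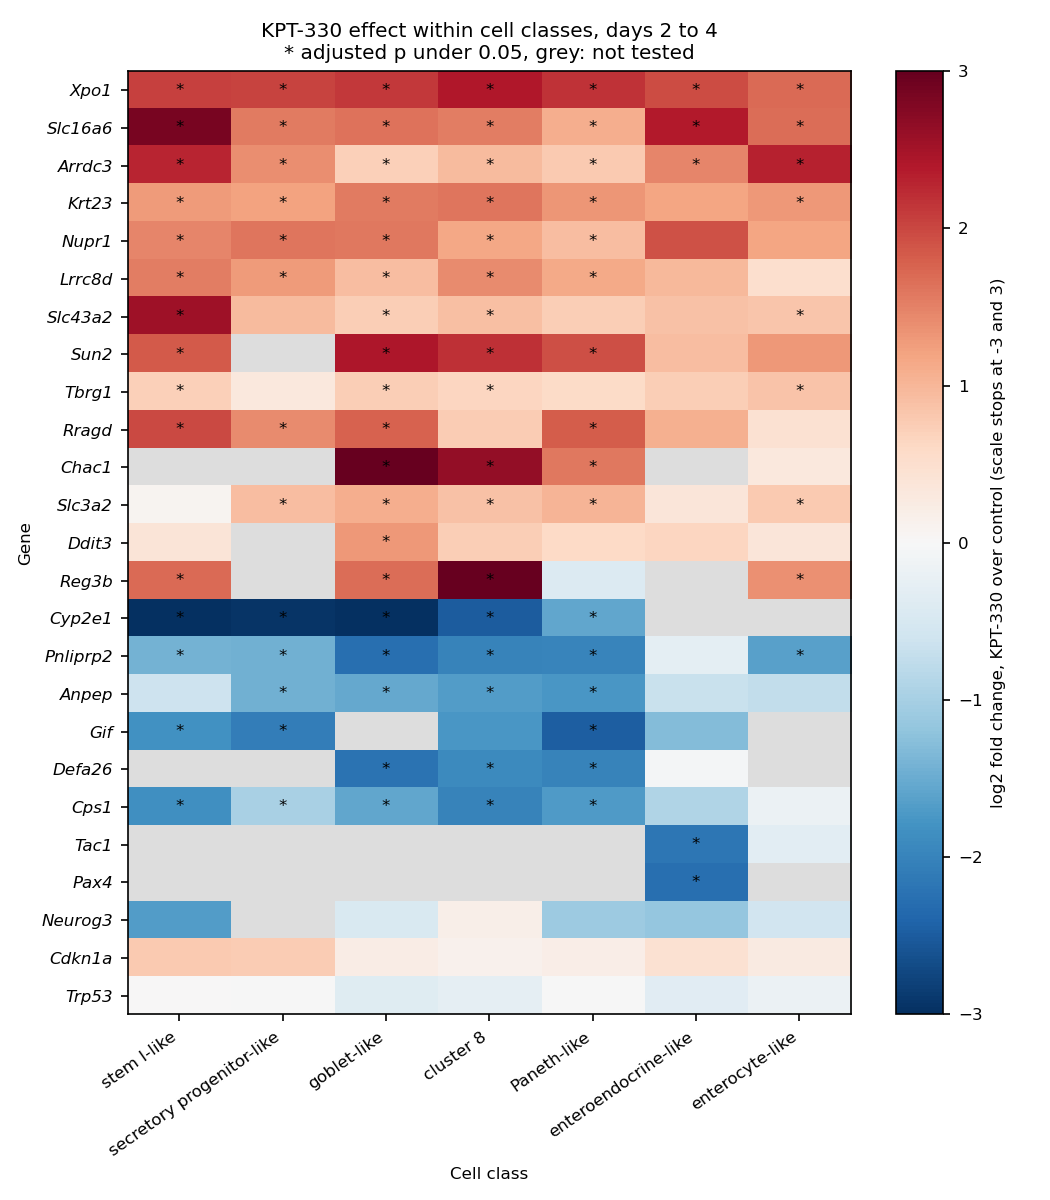
Log2 fold change (KPT-330 against ENR+CD, days 2 to 4, edgeR on UMIs summed per library and class) of 25 genes in each of the 7 classes tested, as colour, with a star for an adjusted p under 0.05 and grey where a gene was not tested. Xpo1, Slc16a6 and Arrdc3 rose in all 7.

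The effect at days 2 to 4 was set against that of the earlier and later libraries in a fit of 15 libraries, in which each period has its own exposure effect (days 0.25 and 1 with 2 libraries per exposure, and day 6 with 2 per exposure). Of 11777 genes tested none passed for days 2 to 4 minus days 0.25 and 1 (0%), with edgeR adjusted p = 0.122 at the lowest, 622 upward and 570 downward at an unadjusted p under 0.05, and 6 upward and 5 downward calls by DESeq2. None passed against day 6 (0%), with edgeR adjusted p = 0.719 at the lowest, 439 and 326 at an unadjusted p under 0.05, and 1 call in each direction by DESeq2. Without day 6 KPT-330 replicate 1 there were 45 genes upward and 9 downward against day 6. That a difference missed the threshold does not show equal effects. All libraries of days 0.25 and 1 are numbered replicate 1. Those of days 2 to 4 are numbered 2, except day 3 KPT-330 replicate 1, and day 6 has both numbers. Period and replicate number are thus hard to tell apart in the contrast with the early period.

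The log2 effects on Xpo1 in the early, middle and late periods were 1.46, 1.58 and 1.40, and on Slc16a6 2.23, 2.14 and 1.82, with edgeR adjusted p = 0.00361 and 0.00681 in the early period. Chac1 had effects of 0.02, 2.34 and 1.6, the smallest p of the contrast with the early period (edgeR adjusted p = 0.122), and levels of 0.152 and 0.0448 without and 0.136 and 0.0549 with KPT-330 at days 0.25 and 1. List medians in the same 3 periods were -0.11, 0.48 and 0.68 for the integrated stress response, 0.64, 0.71 and 0.43 for AP-1 genes and -0.73, -0.79 and -0.81 for DNA replication. Enterocyte genes had 0.32, 1.13 and 0.16, mitosis genes -0.12, -0.99 and -1.43, and enteroendocrine transcription factors -0.13, -0.96 and -0.37. Over all genes these medians were -0.01, 0.00 and 0.01. Neurog3 had effects of -0.81, -1.86 and -1.92, and Lgr5 of 0.13, -0.89 and -0.94. These are descriptions, since no gene passed the test of the difference and the early libraries also differ in replicate number from most middle ones.

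**Figure D5:**
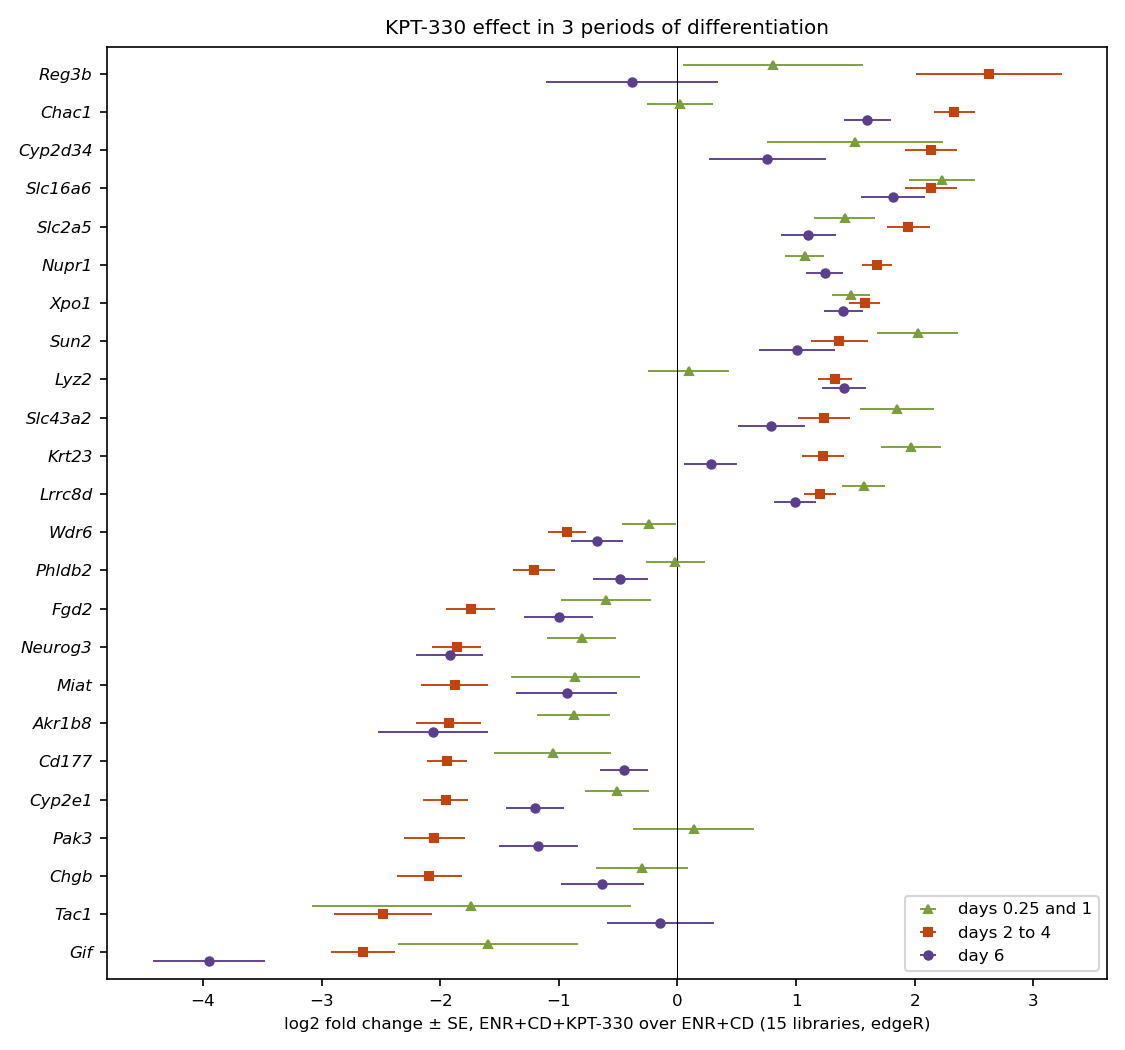
Log2 effect of KPT-330 with SE on the 12 raised and 12 lowered leading genes at days 0.25 and 1, at days 2 to 4 and at day 6, from the 15-library edgeR fit. Xpo1 stayed between 1.40 and 1.58, while Chac1 went from 0.02 to 2.34 and 1.6. No difference between periods passed the test.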

How the data were processed

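Organoid cells were profiled with Seq-Well S3. The authors demultiplexed reads with bcl2fastq, aligned them with STAR to mm10 in the Drop-seq pipeline, grouped them by barcode with UMI collapsing, and deposited raw UMI counts per gene and barcode for each library. A merged table of the cells that passed their quality control was used for its cell names only. That quality control had removed doublets by hand and with DoubletFinder, so no further doublet caller was run. Groups came from the sample labels.

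UMI counts of those cells were summed per library and tested with edgeR 4.0.16 in R 4.3.3 (TMM, filterByExpr with a minimum count of 10, quasi-likelihood, day plus exposure, Benjamini-Hochberg threshold 0.05). The study tested single cells by the Wilcoxon method, but cells of 1 library are not replicates. Clusters used Seurat 5.3.0 and sctransform 0.4.2 (3000 variable genes without the 12 the study names, 9 components, 20 neighbours, resolution 0.45), and class fits took libraries with at least 20 cells. Effects per period used 15 libraries, and the change per day used exposure by centred day. DESeq2 1.42.0 and limma 3.58.1 (log2 of counts per 10000 plus 1, averaged over cells) served as alternatives, and the closing section gives their effect. The edgeR tests, those within classes included, were tried on simulated data. Sums gave 4221819 to 11669105 UMIs per library, so precision is limited by the number of libraries rather than of UMIs except for rare transcripts.

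Named genes were, per direction, the 12 of smallest p with a mean level of at least 0.2 UMIs per 10000 and the same direction in every KPT-330 library. Added to them were up to 4 members by p of each of 38 gene lists plus members with a role described, the genes the study names, the 5 per direction called in each contrast and the 3 per direction called in each class. The members and lists were chosen with earlier results of these data known. Coordinates are from GENCODE M21 (mm10), and promoter windows are RefSeq's (GRCm38.p6). A few listed genes are counted but not reported here by name.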

Additional observations from a re-analysis of the deposited data

Results flagged for a closer look

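The KPT-330 effect on 3 enteroendocrine transcripts changed from day to day by a test of exposure by day: Gcg by 2.60, Cck by 2.36 and Scg2 by 1.63 log2 units per day, each upward, with 1 library per exposure at days 2 and 4. These 3 genes kept the call in each alternative that was run for the change per day.

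Reg3b was higher in every KPT-330 library than in its control at days 2 to 4 (log2 effect 2.63), whereas the day 6 effect was -0.38. On unscaled levels day 6 held 4.786 and 1.31 in ENR+CD and 2.795 and 0.5171 with KPT-330, so that the exposures overlapped. The difference between the periods was not tested on its own, and no gene passed the contrast with day 6. Cdk6 fell at days 2 to 4 (-0.43) while its effect at days 0.25 and 1 was 0.16, with both earlier KPT-330 libraries above the control of their day after TMM scaling. On unscaled levels the day 1 library was not (0.5002 UMIs per 10000 against 0.5089 in its control), and the pattern was not tested.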

How the results depend on the processing

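For days 2 to 4, DESeq2, RLE factors, no filter, all barcodes, cells with 1000 genes or more, another scaling gene set and the 15-library fit gave 1464 to 2017 raised and 1007 to 1745 lowered genes, within 1.5 times 1599 and 1355. Library totals alone, chosen after seeing the data, gave 637 raised and 4124 lowered (13.38% raised against 54.13%), and limma on mean log values gave 677 and 4125, and the cause was not tested. With a replicate block, in which day 3 KPT-330 replicate 1, the only library numbered 1, has its own term, 1715 rose and 1320 fell. The same replicate block gave 612 calls in Paneth-like, 406 in cluster 8, 385 in enterocyte-like, 59 in enteroendocrine-like and 382 in goblet-like cells against 65, 146, 126, 38 and 200, and left the contrasts of periods at 0. The numbers pair no samples here, since the control libraries are all numbered 2.

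Leaving out 1 library at a time gave 11 to 1703 raised and 12 to 1316 lowered genes, 17 to 603 calls in Paneth-like, 27 to 405 in cluster 8, 21 to 382 in enterocyte-like, 3 to 77 in enteroendocrine-like, 24 to 382 in goblet-like, 3 to 44 in secretory progenitor-like and 71 to 378 in stem I-like cells. It gave 88 to 180 upward and 7 to 13 downward changes per day, 0 to 45 upward and 0 to 9 downward against day 6, and 0 to 0 against days 0.25 and 1. At resolution 0.8 there were 33 calls in Paneth-like and 129 in goblet-like cells. Clusters led by many of the same genes as cluster 8 and the secretory progenitor-like class were present there without a class name and were not set beside them, and the secretory progenitor-like class had no fit at 50 cells per library. DESeq2 and no filter gave 6 and 218 upward and 5 and 129 downward against days 0.25 and 1, 1 and 262 upward and 1 and 66 downward against day 6, and 26 and 178 upward and 1 and 12 downward per day.

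Of single genes and their alternatives 588 kept direction and side of the threshold, 37 lost and 14 gained a call and 5 reversed, none of the 5 called: Gcg to 0.0091 with limma, and Scg2 to 0.0008 with limma, 0.1986 with all barcodes, -0.9677 to 0.2608 with 1 library left out (0.2608 without the day 2 control and 0.2519 without the day 2 KPT-330 library). List medians changed sign for p53 (-0.0023 with library totals and -0.0030 with limma), arrestins and FOXO (-0.1013 and -0.0306), tight junctions (-0.1275 and -0.0320), YAP (-0.1508 and -0.0045), long non-coding RNAs (-0.1501 and -0.1304), ERK feedback (-0.2083 and -0.0142), the Bcl2 family (-0.2501 and -0.0396), heat shock (-0.2761 and -0.2112) and glycolysis (-0.2937 and -0.0338), with library totals for the genes the study names (-0.2328) and with limma for epithelial identity (-0.0225). Over all genes the median was -0.2966 with library totals and -0.0262 with limma. The heat shock and glycolysis medians, 0.0222 and 0.0071, also fell below 0 with some libraries left out. Depth limits the genes near 0, such as Tph1 with 2 and Gcg with 5 UMIs in 1 library, and 1 library per exposure and day limits the rest.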
